A study of Arabidopsis thaliana with 12 samples.

Results

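A set of 89 probe sets stood at least 2-fold higher in Arabidopsis seedlings that received BLM and INA together, while each agent alone left them within a narrow band around the control. They are 89 of the 22746 probe sets tested, and were chosen by their measured values. On the log2 scale, the group mean minus the control mean had to be at least 1 with both agents, from -0.5 to under 0.5 with INA, and above -0.4 and under 0.5 with BLM. The set was smaller after quantile normalization of the deposited values: 34 probe sets met the limits, 31 of them among the 89. After this step 32 of the 89 still stood at 1 or more with both agents (median 0.93). The deposited values are centred on each probe set's median, so the step gives the differences the same spread on every array. It cannot tell the scaling of the arrays from treatments that widen the differences. A further probe set, that of the glutaredoxin gene GRX480 (AT1G28480, also called GRXC9), met these limits and was left out by the rule. The differences that chose the members are therefore descriptions, without a test.

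The series holds 12 arrays of wild-type Arabidopsis thaliana seedlings, with 3 biological replicates in each of 4 groups: BLM+INA (BLM at 4 µg/ml with INA at 10 µM), BLM at 4 µg/ml, INA at 10 µM, and the untreated control, CK. BLM is bleomycin, the DNA-damaging agent of the series title, and INA is its immune inducer; the title states synergy on defence genes, which the group with both agents addresses. All seedlings grew on MS plates under long days, and RNA came from seedlings and not from sorted cells, so fewer cells of a type and less RNA per cell cannot be told apart. The time between treatment and harvest and the age of the seedlings are not given in the sources used here.

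Plant immunity starts at receptors on the cell surface and inside the cell, which recognise microbial molecules or the acts of microbial effectors. Calcium influx, kinases and transcription factors pass the signal on, and salicylic acid then sustains it within the leaf and across the plant. Its known outputs include lectins, proteases, oxidising enzymes and enzymes that attach sugars to small molecules. DNA damage is sensed by a separate set of kinases that act on repair and the cell cycle.

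Of the 89 probe sets, 41 were paired with exactly 1 gene, 4 with several genes, and the other 44 are unnamed here. The 4 probe sets with several genes cannot separate them, and 5 of the 89 (5.62%) carry a suffix for probes shared between transcripts, against 4.66% of all probe sets. Each value is given below as the log2 difference from the CK mean of the same probe set, so a value of 1 is a doubling, and values of different genes are differences and not levels.

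All 89 probe sets stood between 1.003 and 2.73 with both agents (median 1.16), which is 2.004-fold to 6.62-fold. With BLM alone they lay between -0.20 and 0.50 (median 0.31), and with INA alone between -0.25 and 0.49 (median 0.29). Over all probe sets tested the medians were 0.02 with both agents, 0.04 with BLM and 0.01 with INA. Most members thus lay close to the lower limit of the rule: 8 stood at 2 or more, 7 between 1.5 and 2, 23 between 1.2 and 1.5, and 51 under 1.2.

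The single agents were not without a value in most of these genes. INA alone stood above CK in 85 of the 89, BLM alone in 83, and both in 80, within the band that the rule allows. In 69 members at least 1 of the single agents reached 0.3, and in 20 both stayed under it. BLM stood above INA in 44 members. The difference with both agents exceeded the sum of the single differences on the log2 scale in all 89, by 0.16 to 2.86 (median 0.62), an order that the limits of the rule fix. On the linear scale as well, the rise over CK with both agents exceeded the sum of the single rises in all 89, by 0.328 to 5.22 times the CK value (median 0.833), which the limits fix too.

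**Figure D1:**
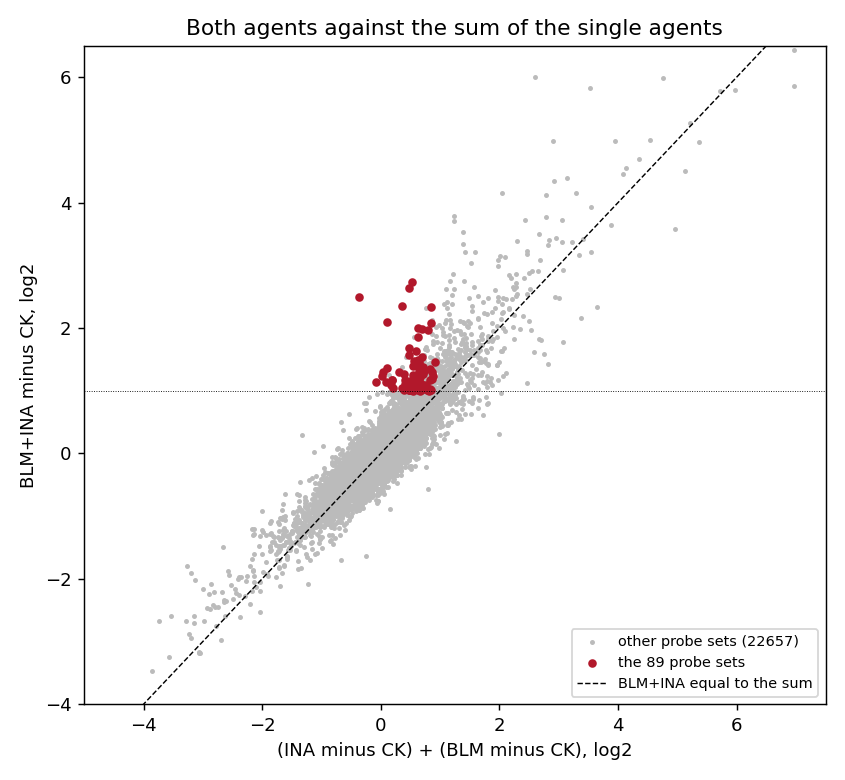
BLM+INA minus CK (vertical axis, log2) against the sum of INA minus CK and BLM minus CK (horizontal axis, log2) for all 22746 probe sets, with the 89 in red, equality as a dashed line and the limit of 1 as a dotted line. The 89 lie left of the dashed line, by 0.16 to 2.86.

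The replicate arrays were close to each other by comparison with these differences. In 86 of the 89 probe sets the 3 BLM+INA arrays lay above all 9 other arrays, a separation found in 4.79% of all probe sets, which the choice of members largely fixes. The 3 that overlapped were those of AT4G36500, AT3G24450 and 245711_at. The SD over the 3 BLM+INA arrays had a median of 0.22, against 0.16 in BLM, 0.15 in INA and 0.14 in CK. BLM+INA replicate 2 was the lowest of its group in 58 members, and the median over members was 1.32, 1.04 and 1.24 on BLM+INA replicates 1, 2 and 3. On the other 9 arrays, that median lay between 0.23 and 0.39 with BLM, between 0.23 and 0.35 with INA and between -0.05 and 0.05 in CK.

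**Figure D2:**
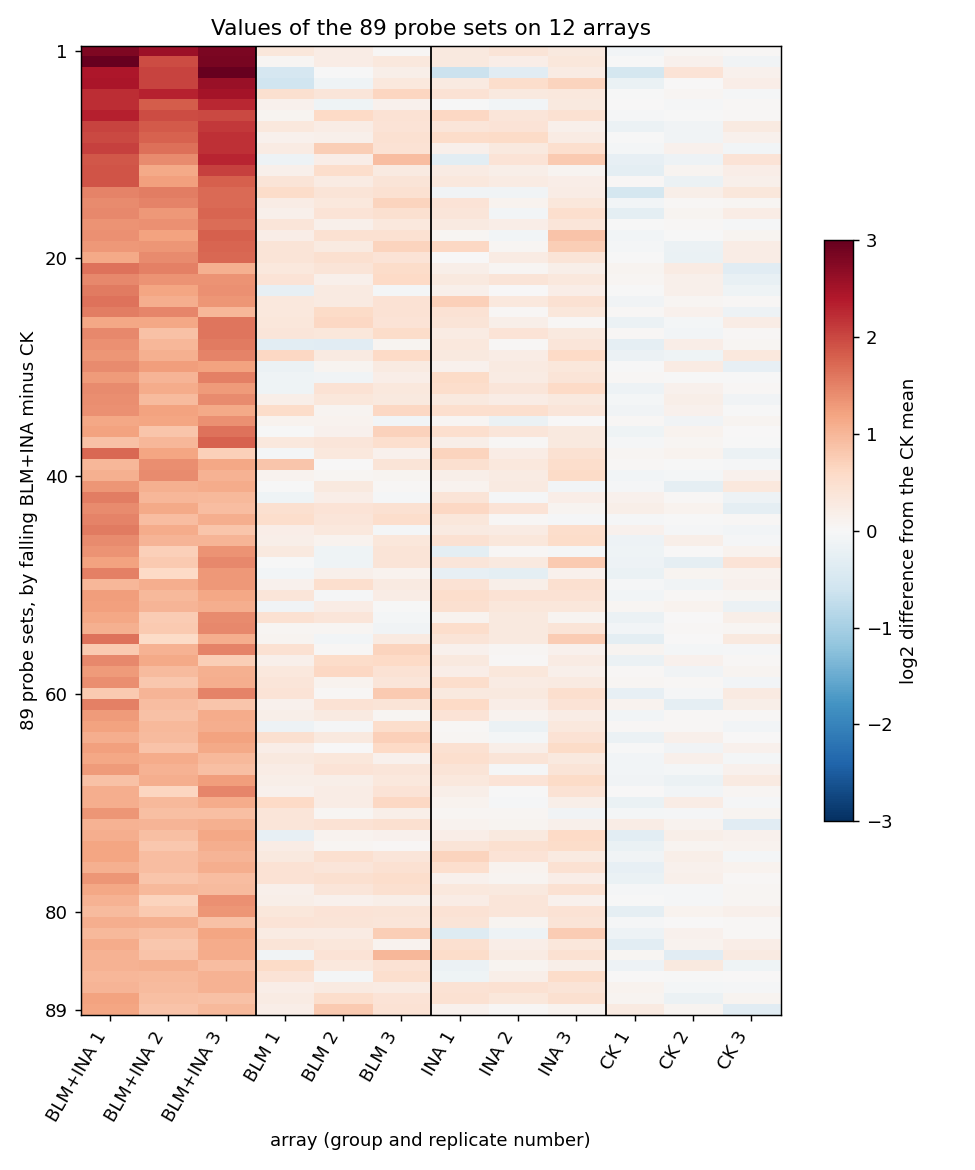
The 89 probe sets (rows, by falling BLM+INA minus CK) on the 12 arrays (columns), coloured by the log2 difference from the CK mean. The 3 BLM+INA columns are red throughout, and the BLM and INA columns are pale, with medians from 0.23 to 0.39 per array.

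A quantity the rule did not use is the level. Because the deposited values were centred, levels could be read only as broad classes of log2 signal, from the spacing of the stored numbers. On the lowest of the 9 arrays without both agents, 27 members (30.3%) had a log2 level of 2 to 4, 61 (68.5%) of 4 to 8 and 1 (1.12%) of 8 or over. Of all probe sets, 27.9% were in the lowest class, 53.7% in the middle and 16.5% in the highest. Among the other 482 probe sets that stood at 1 or more with both agents, 13.7% were in the lowest class and 13.5% in the highest. Another 1.91% of all probe sets and 3.94% of the 482 had no readable class. These classes depend on each probe set's own brightness as well as on the transcript, and the members' share in the lowest class was near that of all probe sets. The single member of the highest class was the probe set of the protein kinase genes AT1G65250 and AT1G65190. Among the members with the largest differences, 254271_at, 257100_at, AT1G24140, 261986_s_at, 259428_at and AT1G78410 were in the lowest class. In the middle class were 263539_at, AT5G18470, AT3G09020 and AT1G66880.

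Roles were assigned to the members only, and the share of each role over all probe sets was not counted. The numbers of members per role, here and below, are therefore descriptions and show no enrichment. Receptors, kinases, TIR proteins and a lectin made up 8 of the 45 probe sets paired with genes, with both agents at 1.003 to 2.35. AT5G18470, of the curculin-like mannose-binding lectin family, had the largest difference of any single-gene member. Its arrays read 2.45, 2.03 and 2.58 with BLM+INA, -0.59, -0.12 and 0.31 with BLM, 0.27, 0.53 and 0.67 with INA, and -0.20, 0.00 and 0.20 in CK. The lowest BLM+INA array lay well above the highest of the others, and the BLM arrays spread more than those of any other group. The means were 2.35 ± 0.29 with BLM+INA and -0.13 ± 0.45 with BLM (SD, n = 3 each).

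AT1G66880, a gene of the protein kinase superfamily, read 2.34, 1.95 and 1.97 with BLM+INA, 0.09, 0.60 and 0.44 with BLM, 0.61, 0.35 and 0.45 with INA, and -0.03, -0.01 and 0.04 in CK. Both single agents lay above the CK arrays, and both lay far below the combination. The probe set of the TIR-NBS-LRR genes AT5G41750 and AT5G41740, a class of intracellular immune receptors, read 1.89, 1.23 and 1.79 with BLM+INA, 0.39, 0.25 and 0.39 with BLM, 0.32, 0.25 and 0.20 with INA, and 0.03, -0.18 and 0.15 in CK. BLM+INA replicate 2 was the lowest of its group and still clear of all other arrays. AT1G57630, which encodes a protein with a TIR domain, read 0.87, 0.99 and 1.77 with BLM+INA, 0.32, 0.36 and 0.50 with BLM, 0.17, 0.04 and 0.30 with INA, and -0.02, 0.05 and -0.02 in CK, so replicate 3 accounted for much of its mean of 1.21.

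The receptor-like kinase genes had smaller differences. AT2G19130, an S-locus lectin kinase gene, averaged 1.13 ± 0.13 with BLM+INA, 0.19 with BLM and 0.47 with INA (SD, n = 3). AT5G25930, a leucine-rich repeat kinase gene, averaged 1.06 ± 0.07 with BLM+INA, 0.48 with BLM and 0.08 with INA, and AT4G18250, a receptor kinase gene, 1.04 ± 0.14, -0.01 and 0.37 in the same groups. The leucine-rich repeat kinase gene thus had its higher single-agent value with BLM, and the other 2 had it with INA. The shared probe set of AT1G65250 and AT1G65190 stood at 1.003 ± 0.04, 0.23 and 0.43.

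Calcium and ion channel proteins gave 3 members, at 1.27 to 1.47. AT3G01830, which encodes a calmodulin-like EF-hand protein, read 1.34, 1.38 and 1.69 with BLM+INA, 0.36, 0.14 and 0.32 with BLM, 0.28, 0.20 and 0.36 with INA, and 0.00, 0.04 and -0.04 in CK. Both agents alone gave nearly the same value, 0.27 with BLM and 0.28 with INA. GLR1.4, a glutamate receptor-like channel gene, read 1.55, 1.18 and 1.38 with BLM+INA, -0.25, 0.26 and -0.05 with BLM, 0.15, 0.01 and 0.20 with INA, and -0.02, 0.15 and -0.13 in CK. Its BLM and INA arrays overlapped those of CK. AT2G26190, a calmodulin-binding protein gene, averaged 1.27 ± 0.25 with BLM+INA, -0.01 with BLM and 0.39 with INA (SD, n = 3).

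Regulatory proteins gave 4 members. AT1G78410, which encodes a protein with a VQ motif, a motif known for binding WRKY transcription factors, read 2.06, 1.65 and 2.19 with BLM+INA, 0.26, 0.74 and 0.42 with BLM, 0.15, 0.29 and 0.51 with INA, and -0.05, 0.13 and -0.07 in CK. The other 3 stood at 1.03 to 1.18: the B3-domain gene AT3G53310 at 1.18 ± 0.20, the BTB/POZ-domain gene AT2G24240 at 1.10 ± 0.35 and the WD40-repeat gene AT3G45620 at 1.03 ± 0.12 (SD, n = 3 each). AT3G53310 had a BLM array at 0.84, close to its lowest BLM+INA array at 0.99.

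Oxidising enzymes gave 7 members, all between 1.003 and 1.31. AT1G26380, a berberine bridge enzyme-like oxidase gene of indole defence metabolism, read 1.44, 0.88 and 1.61 with BLM+INA, 0.36, 0.34 and 0.55 with BLM, 0.25, 0.42 and 0.28 with INA, and 0.05, -0.09 and 0.04 in CK. Its relative AT5G44390 averaged 1.10 ± 0.35 with BLM+INA, 0.44 with BLM and 0.20 with INA. CYP71B23, a cytochrome P450 gene, read 1.42, 1.25 and 1.22 with BLM+INA, -0.17, 0.09 and 0.27 with BLM, 0.13, 0.27 and 0.35 with INA, and -0.02, 0.26 and -0.24 in CK, with both single agents inside or just above the range of CK. The oxoglutarate-dependent oxygenase genes AT3G19010 and AT3G28480 stood at 1.27 ± 0.16 and 1.003 ± 0.18, the short-chain dehydrogenase gene AT2G37540 at 1.03 ± 0.19, and the shared probe set of the copper amine oxidase genes AT4G12290 and AT4G12280 at 1.204 ± 0.50 (SD, n = 3 each).

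Other enzymes gave 9 members, from 1.07 to 2.34. AT1G24140, which encodes a matrix metalloproteinase, a protease of the cell exterior, read 2.22, 2.31 and 2.49 with BLM+INA, 0.48, 0.37 and 0.64 with BLM, 0.43, 0.29 and 0.32 with INA, and -0.01, 0.06 and -0.05 in CK. The 4 groups did not overlap except BLM with INA, and its BLM mean of 0.4998 was the value nearest to the limit of 0.5. AT3G09020, of an alpha-1,4-glycosyltransferase family, read 2.22, 1.82 and 2.26 with BLM+INA, 0.13, -0.14 and 0.13 with BLM, -0.02, -0.09 and 0.29 with INA, and 0.02, -0.04 and 0.02 in CK. Its single-agent means of 0.04 with BLM and 0.06 with INA were within 0.1 of CK, which held for 2 of the 89 probe sets, the other being that of AT5G55420 (0.04 with BLM and -0.03 with INA, against 1.23 ± 0.11 with both). AT5G55420 is not a protein-coding gene in RefSeq, and its probe set was in the lowest level class.

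Sulfur and nucleotide metabolism was represented by AT5G09290 and SAL2, nucleotidase genes of the SAL family, which averaged 1.25 ± 0.27 and 1.07 ± 0.18 with BLM+INA (SD, n = 3 each). SAL2 stood at 0.23 with BLM and 0.43 with INA, and AT5G09290 at 0.27 with each. AT3G12040, which encodes a DNA-3-methyladenine glycosylase, an enzyme of base excision repair, read 1.37, 1.21 and 1.13 with BLM+INA, 0.54, 0.08 and 0.63 with BLM, 0.51, 0.50 and 0.37 with INA, and -0.11, 0.13 and -0.02 in CK. Its INA mean of 0.46 was no lower than its BLM mean of 0.42. OPCL1, a ligase gene of jasmonate synthesis, averaged 1.09 ± 0.12 with BLM+INA, 0.11 with BLM and 0.06 with INA. The cysteine protease gene AT3G49340, the glycosyltransferase gene AT2G41640 and the hydrolase gene AT2G39400 stood at 1.10, 1.22 and 1.08 with BLM+INA.

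Heavy-metal-associated domain proteins gave 2 members. AT5G52740 read 1.88, 1.13 and 2.05 with BLM+INA, 0.15, 0.52 and 0.27 with BLM, 0.25, 0.17 and 0.08 with INA, and -0.29, 0.09 and 0.20 in CK. AT3G24450 read 1.04, 0.86 and 1.12 with BLM+INA, -0.09, 0.41 and 0.99 with BLM, 0.55, 0.24 and 0.47 with INA, and 0.06, -0.33 and 0.27 in CK. Its BLM replicate 3 lay above its lowest BLM+INA array, and it stood only 0.16 above the sum of its single differences, the least of the 89.

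**Figure D3:**
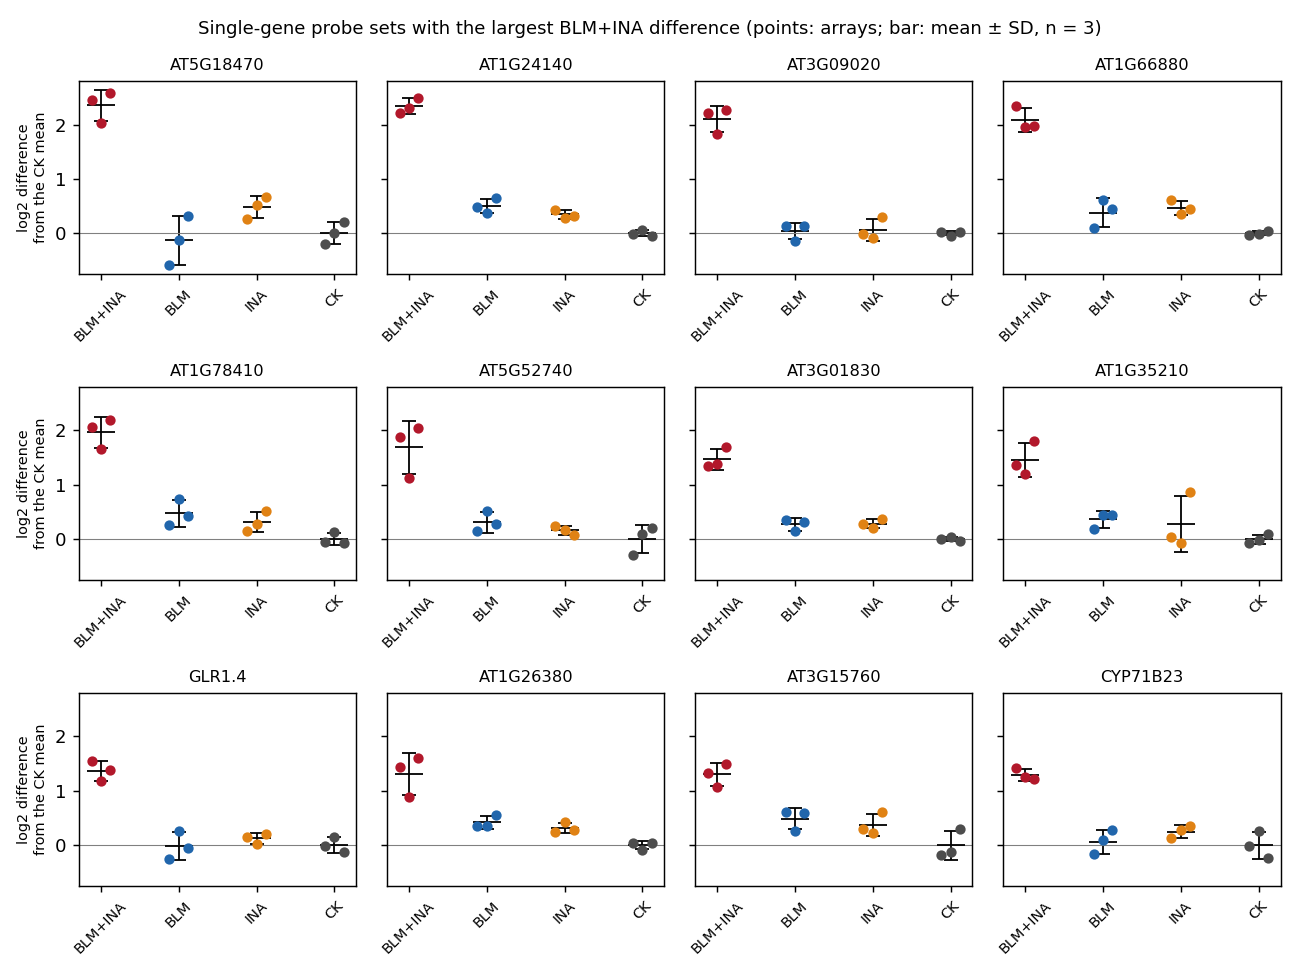
The log2 difference from the CK mean (vertical axis) in BLM+INA, BLM, INA and CK for the 12 single-gene probe sets with the largest BLM+INA differences; points are arrays and bars are means ± SD (n = 3). In each panel the 3 BLM+INA arrays lie above the other 9, from 2.35 on average for AT5G18470 to 1.30 for CYP71B23.

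The remaining 12 probe sets with genes, for which no role is given here, stood at 1.01 to 1.46. AT1G35210 read 1.37, 1.21 and 1.80 with BLM+INA, 0.19, 0.45 and 0.45 with BLM, 0.05, -0.08 and 0.86 with INA, and -0.07, -0.02 and 0.09 in CK, with INA replicate 3 apart from its group. AT3G15760 averaged 1.30 ± 0.21, AT4G23610 1.17 ± 0.21, AT4G36500 1.14 ± 0.34 and AT2G18690 1.11 ± 0.33 with BLM+INA (SD, n = 3 each). The probe set shared by AT2G18680 and AT2G18670, whose locus numbers come just before that of AT2G18690, stood at 1.14 ± 0.37. Besides AT5G55420, described above, the other 5, AT1G19020, AT3G49790, AT1G13990, AT4G11300 and AT2G28400, lay between 1.01 and 1.07.

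The 44 probe sets without a gene name had both agents at 1.003 to 2.73 (median 1.16) and held the 3 largest differences of the whole set. Probe set 254271_at read 2.81, 2.56 and 2.82 with BLM+INA, 0.34, 0.23 and 0.04 with BLM, 0.29, 0.40 and 0.29 with INA, and -0.09, 0.06 and 0.03 in CK. Probe set 257100_at read 3.10, 1.97 and 2.84 with BLM+INA, 0.06, 0.22 and 0.31 with BLM, 0.29, 0.20 and 0.34 with INA, and -0.01, 0.12 and -0.11 in CK. In both, the single-agent arrays stayed under 0.5. Probe set 263539_at, at 2.42, 2.03 and 3.06 with BLM+INA, stood below CK with each agent alone, at -0.11 with BLM and -0.25 with INA, but its CK arrays spread from -0.54 to 0.40.

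The limits of the rule cut through a continuous range. Just inside the limit of 1 with both agents were 258277_at, AT3G28480 and the shared probe set of AT1G65250 and AT1G65190, each at 1.003. Just outside were 248276_at at 0.9999, the stress transcription factor gene BZIP60 at 0.99 and 265161_at at 0.98. At the INA limit, AT3G19010 (0.494), 258786_at (0.492) and AT5G18470 (0.487) were inside, and 253779_at (0.506), 257101_at (0.513) and AT5G49900 (0.529) outside. At the BLM limit, AT1G24140 (0.4998), 259312_at (0.494) and AT3G15760 (0.488) were inside, and 255753_at (0.503), 256833_at (0.505) and AT5G39670 (0.516) outside. The lower limits were not approached: the lowest values were -0.25 for INA and -0.20 for BLM.

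Neighbouring genes give a readout that the rule did not use. For 33 of the 40 single-gene members placed in the RefSeq order (TAIR10.1), the next protein-coding gene on at least 1 side was measured by a probe set of its own, 47 probe sets in all. Their median with both agents was 0.01, and 42 of the 47 lay within 0.5 of CK. A difference of at least 1 was found for 2 of them (4.26%), against 2.51% of all probe sets. These were AT5G52750, the neighbour of AT5G52740 with the same heavy-metal-associated domain, at 4.15 with BLM+INA, 1.01 with BLM and 1.04 with INA, and the kinase gene AT3G09010, the neighbour of AT3G09020, at 1.39, 0.29 and 0.79. One neighbour lay at -1.05, AT4G11290 beside AT4G11300, with BLM at -1.50 and INA at 0.41. The lectin gene AT5G18470 lay between AT5G18460 at -0.27 and AT5G18475 at -0.03. Genes on shared or unnamed probe sets could not be counted as neighbours, among them AT2G18680 and AT2G18670, numbered just before AT2G18690. AT5G55420 was not placed, since it is not a protein-coding gene in RefSeq.

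**Figure D4:**
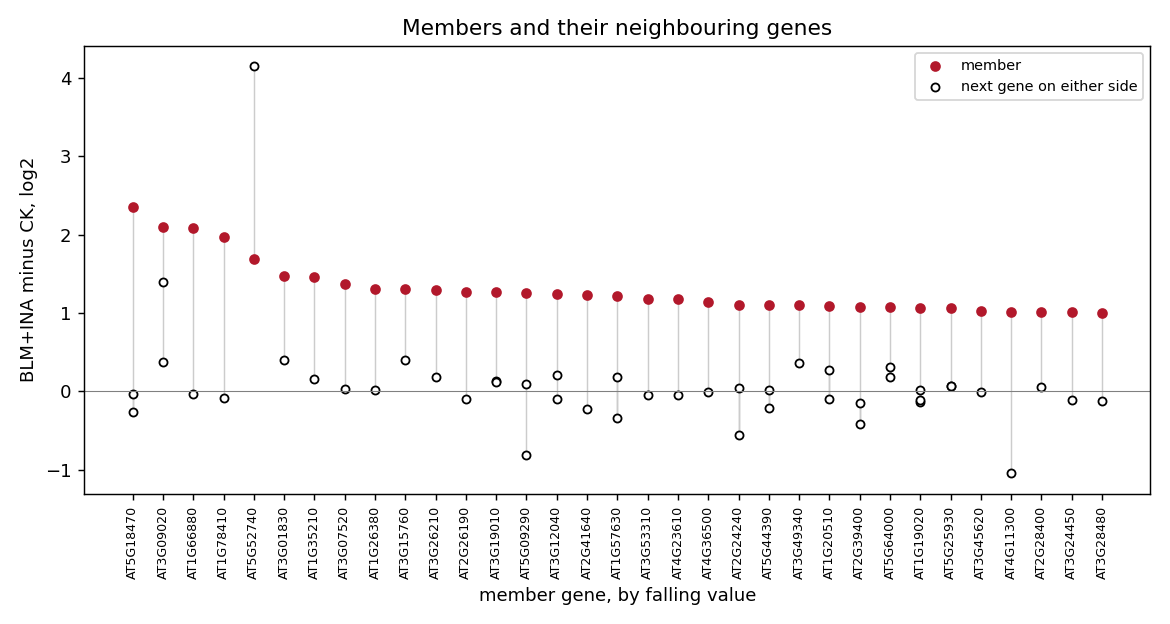
BLM+INA minus CK (vertical axis, log2) of 33 member genes (filled points, by falling value) and of the genes next to each in the RefSeq order (open points). All but 2 of the 47 open points lie below 1, the exceptions being AT5G52750 at 4.15 and AT3G09010 at 1.39.

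Relatives of the members were compared by family, for families picked after the members were known, so their values are given without a test. The other 4 matrix metalloproteinase genes lay between -0.06 and 0.06 with both agents, against 2.34 for AT1G24140. Among berberine bridge enzyme-like oxidase genes, 17 of the 19 others lay within 0.5 of CK with both agents. The 2 outside that band were AT1G26420, at 0.96 with BLM+INA, 0.18 with BLM and -0.05 with INA, and AT2G34810, at 0.94, 0.62 and -0.13. Both lay short of the limit of 1, AT1G26420 with single-agent values inside the bands of the rule.

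The 6 other glutamate receptor-like genes included GLR2.7, at 1.39 with BLM+INA, -0.05 with BLM and 0.63 with INA, which was outside the set through its INA value; the other 5 lay between -0.22 and 0.23 with both agents. Of the 18 other CYP71B genes, 13 lay within 0.5 of CK, and CYP71B36 (1.70 with BLM+INA, 0.33 with BLM and 0.83 with INA) and CYP71B24 (1.35, 0.35 and 0.65) were at 1 or more. AT5G63990, of the SAL family and next to SAL2, stood at 0.18 with both agents. The members of these families were chosen for their value with both agents, so their distance from these relatives is a description.

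Genes were taken from 12 lists with 220 genes, of which 37 were measured by a named probe set outside the 89. The lists cover pathways around the members and also root and photosynthesis markers. Their tests are those of limma, two-sided, with p adjusted over all 22746 probe sets. The lists were chosen with earlier results of these data known, so the calls are not independent of that choice. Leaving out the members also removed AT3G01830 from the calcium list by its own values. With both agents 18 of the 37 rose and 6 fell (17 of 36 rose without GRX480, which met the limits of the rule). All 6 that fell were tissue markers, 4 of root and 2 of photosynthesis. The fit called 11.2% of all probe sets higher and 11% lower with both agents, 22.2% together. With BLM 9 rose and 8 fell (8.38% and 8.29% of all). Of these 8, 4 were root markers and 1 was a photosynthesis marker. With INA 1 rose and 0 fell (0.91% and 0.251%). In the interaction 2 stood above the sum of the single agents and 0 below (0.303% and 0.0791%). At an unadjusted p under 0.05 in limma, 7 of the 37 were higher and 3 lower with INA, and 12 stood above and 1 below in the interaction. The share of all probe sets at this unadjusted threshold was not counted. The unadjusted counts, here and below, are therefore descriptions and show no enrichment. The medians over the 37, tissue markers included, were 0.36 with both agents, 0.14 with BLM and 0.06 with INA. Over all probe sets they were 0.02, 0.04 and 0.01.

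WRKY transcription factors bind defence gene promoters. Of the 31 WRKY genes on the list, only 4 had a named probe set. All 4 rose with both agents, 3 with BLM and 0 with INA (1 at an unadjusted p under 0.05 in limma). WRKY53 read 3.30, 3.10 and 4.17 with BLM+INA, 0.77, 0.89 and 0.86 with BLM, 0.48, 0.52 and 0.65 with INA, and 0.05, 0.00 and -0.04 in CK, in 4 ranges that did not overlap. It stood 2.13 ± 0.26 (SE) above the sum of the single agents (adjusted p = 0.000773). WRKY47 (0.82), WRKY22 (0.74) and WRKY6 (0.54) rose less with both agents, and in none of these 3 did the interaction pass (adjusted p = 0.867, 0.992 and 0.902).

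Of 8 further calcium signalling genes, 4 rose with both agents, 1 rose and 1 fell with BLM, and 1 passed in the interaction. AT3G47480, an EF-hand protein gene, read 2.07, 1.68 and 1.98 with BLM+INA, 0.35, 0.67 and 0.64 with BLM, 0.03, 0.44 and 0.47 with INA, and -0.02, 0.27 and -0.25 in CK. It stood 1.05 ± 0.21 (SE) above the sum (adjusted p = 0.0391), but this call was lost in 9 of 12 fits without 1 array (0.90 to 1.17, adjusted p up to 0.13) and after quantile normalization (0.59, adjusted p = 0.561). AT5G39670, another EF-hand gene, rose by 1.78 ± 0.19 (SE) with both agents, and its interaction of 0.83 did not pass (adjusted p = 0.34). CML38 rose by 0.42 ± 0.11 with both agents, with -0.20 for BLM and -0.11 for INA, and its interaction of 0.73 had an adjusted p of 0.0644. CML37, CML41, CML42 and CML43 did not pass with both agents.

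Among 5 salicylic acid genes, 4 rose with both agents, 2 with BLM and 0 with INA, and 0 passed in the interaction. At an unadjusted p under 0.05 in limma, 3 were higher with INA and 2 stood above the sum. Those that rose with both agents were AT5G52810, at 1.59 ± 0.16, SAG101 at 1.36 ± 0.17, GRX480 at 1.05 ± 0.13 and UGT76B1 at 0.98 ± 0.14 (SE), while UGT74F1 stood at -0.10 ± 0.12. GRX480 had 0.16 with BLM and 0.41 with INA; it met the limits of the rule and was left out by name, so its value with both agents is a description, and 3 of the other 4 rose. Of 5 pattern-triggered immunity genes, EFR, PUB23 and PUB24 rose with both agents, by 0.69 ± 0.13, 0.87 ± 0.15 and 1.42 ± 0.13; BIK1 and PUB22 did not pass. With BLM PUB23 rose and PUB22 fell, and with INA PUB24 rose, by 0.66 ± 0.13 (adjusted p = 0.0131). This only call of a list gene with INA was lost without CK replicate 2, without INA replicate 1 and without INA replicate 3, each of which left 0 list genes called by limma.

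The other lists were thinly covered. BZIP60 of the endoplasmic reticulum list rose with both agents by 0.99 ± 0.12 (SE), and its interaction of 0.64 did not pass (adjusted p = 0.142). The other genes measured on this list did not rise. CRT1b fell with BLM (-0.35 ± 0.10, adjusted p = 0.0203 in limma) and stood at 0.02 ± 0.10 with both agents. ATERDJ3B stood at -0.27 ± 0.10 with BLM and 0.21 ± 0.10 with both agents, and passed in neither. The repair genes ATLIG4 (0.36 ± 0.10) and RAD5 (0.46 ± 0.13) rose with BLM, and ATLIG4 also with both agents (0.38 ± 0.10). The tryptophan pathway gene AT2G04400 rose with both agents by 0.43 ± 0.10. The jasmonate-marker defensin genes PDF1.2 and PDF1.2b passed in none of the 4 tests, with both agents at -0.74 ± 0.26 and -0.45 ± 0.26. Their CK arrays spread from -0.63 to 0.95 and from -0.80 to 0.85, with CK replicate 2 the highest for each. Of the cysteine-rich receptor-like kinase list and the NLR list, 0 genes were measured by a named probe set.

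**Figure D5:**
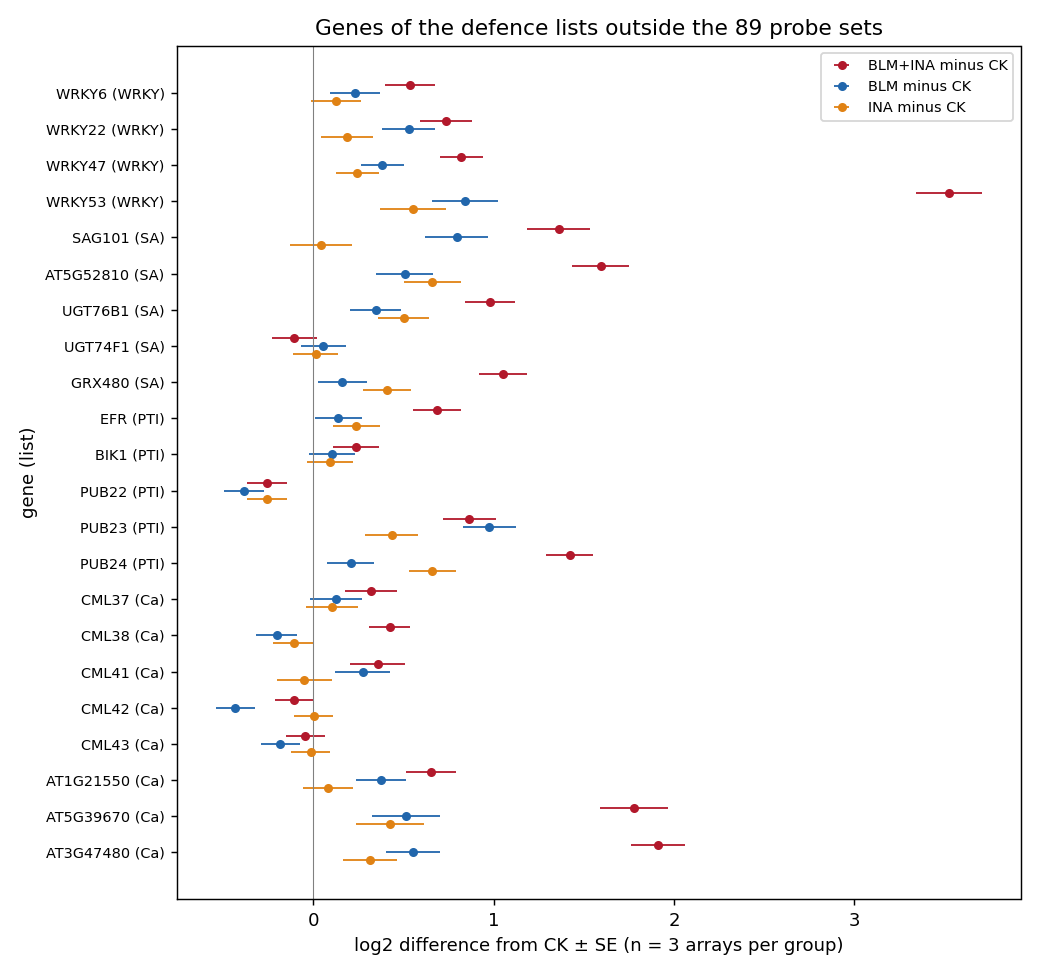
Log2 difference from CK ± SE (horizontal axis, n = 3 arrays per group) for genes of the WRKY, salicylic acid (SA), pattern-triggered immunity (PTI) and calcium (Ca) lists outside the 89 probe sets, with BLM+INA, BLM and INA in colours. WRKY53 at 3.52 and AT3G47480 at 1.91 with both agents are the 2 that passed in the interaction.

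Tissue markers and measures of RNA integrity were set beside these results. Over 5 named root markers the mean was between -1.46 and -1.24 on the BLM+INA arrays, between -1.35 and -1.28 with BLM and between -0.12 and -0.02 with INA. The markers were not alike: 4 of the 5 fell in each group with BLM, with AT4G26010 the lowest, at -3.17 with BLM+INA and -2.82 with BLM. PYK10 did not fall, at -0.02 with BLM+INA and -0.06 with BLM. The median log2 level of the 5 root markers was 4 or more. Over 2 named photosynthesis markers, with a level of 8 or more, the mean was -0.40 with BLM+INA, -0.29 with BLM and -0.06 with INA. The actin 3′ minus 5′ signal averaged 0.07 ± 0.06 with BLM+INA, -0.21 ± 0.24 with BLM, -0.24 ± 0.28 with INA and -0.09 ± 0.20 in CK (SD, n = 3 each), with the BLM+INA range above the BLM range and within reach of the INA and CK ranges. The GAPDH 3′ minus 5′ signal ran the other way, at -0.08 ± 0.32 with BLM+INA, -0.04 ± 0.06 with BLM, 0.07 ± 0.08 with INA and 0.07 ± 0.19 in CK (SD, n = 3 each), and the BLM+INA arrays overlapped all other groups. The part of these shifts in the values of the 89 probe sets was not tested. The median of each array was within -0.02 to 0.03, and 3 arrays a group limit the precision.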

How the data were processed

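Biotin-labelled RNA of 12 samples was measured on Affymetrix-type arrays of 1 colour, with an array for each sample. Per the submitters' processing notes, the authors used RMA (no version given). The deposited log2 values are centred on each probe set's median over the 12 arrays (row medians within 5e-07 of 0), and base 2 is that of RMA. The genome build is not given in the sources used here. Of 22810 probe sets, 64 control probe sets were set aside. A platform table paired 13513 of the 22746 others with 1 gene and 503 with several, and 13436 matched RefSeq (TAIR10.1), whose symbols are used.

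Values were averaged per group and the rule applied. All 12 arrays entered a model with a mean for each group in limma 3.58.1 under R 4.3.3 (8 residual and 8.82 prior degrees of freedom). Benjamini-Hochberg adjustment ran over 22746 probe sets, with a threshold of 0.05. The fit was also run on simulated data with independent errors on each array, which does not cover arrays that deviate together. The interaction subtracts both single-agent differences from CK from that of BLM+INA. The members and lists were chosen with earlier results of these data known. Named members were the 25 single-gene members with the largest differences, those on a list and those nearest the limits; the rest were added to account for every member, and list genes past the threshold for the interaction were named, with others added after their values were seen. Levels came from multiples of the floating-point spacing (tolerance 0.24 of a step). Replicate numbers were not taken to pair the arrays in the main fit, since not every same-numbered pair correlated above 0.1. This limit does not exclude pairing: 17 of 18 such pairs correlated above 0, and a fit with a replicate block called more probe sets. Figures used matplotlib 3.10.9 in Python 3.11.15. No sequence was used here. The alternatives are given in the closing section.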

Additional observations from a re-analysis of the deposited data

Results flagged for a closer look

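For 2 genes of the lists, outside the 89 probe sets, the change INA made in the presence of BLM differed from the change it made without BLM, by the interaction test of limma: WRKY53 by 2.13 (adjusted p = 0.000773) and AT3G47480 by 1.05 (adjusted p = 0.0391). In all 3 BLM+INA arrays both genes lay above every array of the other groups. With 3 arrays in each group, single arrays were not tested as outliers.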

How the results depend on the processing

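The number of probe sets meeting the rule depends on where its limits lie: it was 181 with 0.8 in place of 1, 38 with 1.2, and 20 with single agents within 0.3 of CK. After quantile normalization of the centred values, which gives the differences the same spread on every array, it was 34 (31 of them among the 89). The median of the 89 with both agents was then 0.93 in place of 1.16, with the lowest at 0.78. This step can also remove spread that belongs to the treatments. Without 1 array the number of probe sets meeting the rule lay between 73 and 110, with 65 to 89 of the reported members kept. With group medians it was 87 (65 kept). The difference of the 89 with both agents moved by more than 1 SD in 55 of 89 under quantile normalization and in 21 of 267 values without 1 CK array; leaving out BLM or INA arrays and the replicate block cannot change it.

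For the interaction, 87 probe sets passed, against 45 after quantile normalization, 42 at an adjusted p under 0.01, 38 among single-gene probe sets (fewer were tested), and 59 to 124 without 1 array. With a replicate block it was 170, which included all 87. Of 18 same-numbered pairs, 17 correlated above 0 in their deviations and 10 above 0.1 (median 0.127, against -0.105 for other pairs). Deviations from a group mean sum to 0 within the group, so these medians are not independent of each other. All 6 pairs of replicate 3 lay between 0.233 and 0.405, and 6 of 12 arrays matched their own number best, a hint from the data, not the design, that the arrays numbered 3 deviate together. At an adjusted p under 0.01 the counts were 158 for INA, 2254 for BLM and 3352 for both, and among single-gene probe sets 110, 1937 and 2583. Without 1 array they lay between 168 and 274 for INA (168 without INA replicate 1 and 169 without CK replicate 1, against 264), between 2691 and 3895 for BLM and between 3981 and 5140 for both. The replicate block gave 356, 4530 and 5762.

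Of the 37 list genes, 1 passed with INA, against 0 at an adjusted p under 0.01, 2 with the replicate block and 0 to 3 without 1 array. With BLM 17 passed, against 8 at an adjusted p under 0.01 and 12 to 18 without 1 array, and with both agents 22 to 25 passed without 1 array. In the interaction 2 passed, against 1 at 0.01, 1 after quantile normalization, 4 with the replicate block and 1 to 3 without 1 array. WRKY53 kept its call in all 20 alternatives (1.21 to 2.34, adjusted p up to 0.0192), and AT3G47480 in 9 of 20. The causes were not tested. Comparisons of promoter motifs and of further probe sets of the same genes were not run, since no sequence was used and 0 further probe sets named a member's gene. Dim members (27 with a log2 level of 2 to 4) have signals near the low end of the arrays.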
